A study of Mus musculus with 12 samples.

Results

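The genes described here encode the cellular machinery that detects double-stranded RNA, and they were followed in B16F10 cells, a mouse melanoma line, after treatment with 5-aza-2'-deoxycytidine (DAC), sulforaphane (SFN) or both. The 10 genes were chosen by symbol and all 10 were found among the 24421 gene symbols of the count files. They were chosen with earlier results of these data known. Shares of members set beside shares of all genes below are therefore descriptions and not tests. They were Ddx58, Ifih1, Dhx58, Ddx60, Trim25, Mavs, Tlr3, Eif2ak2, Adar and Zbp1. RNA-seq was performed on 12 libraries, 3 biological repeats in each of 4 groups. The control cells received DMSO as vehicle. DAC single treatment was 25 nM for 72 h, with a change of medium at 24 h. SFN single treatment began at 24 h and lasted 48 h, and combination treatment was 25 nM DAC for 72 h with 5 µM SFN over the last 48 h. The methods give 5 µM SFN for the single treatment as well, while the sample labels give 5 nM there, so the SFN dose of the single treatment is uncertain wherever the SFN group is compared. DAC, a deoxycytidine analog, traps DNA methyltransferases once incorporated into DNA, and SFN is an isothiocyanate derived from cruciferous vegetables. B16F10 is a single cell line, and each RNA sample is bulk RNA from 1 culture, so a change in every cell and a larger change in part of the cells cannot be told apart, nor can fewer cells of a type and less RNA per cell.

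Double-stranded RNA in the cytosol is bound by the helicases RIG-I (Ddx58) and MDA5 (Ifih1), which signal through the mitochondrial adaptor MAVS to the kinases and transcription factors that induce type I interferon. LGP2 (Dhx58) is a related helicase that modulates both, Trim25 is a ubiquitin ligase known for activating RIG-I, and Ddx60 is a helicase reported to assist RIG-I. TLR3 recognizes double-stranded RNA in endosomes, PKR (Eif2ak2) phosphorylates the translation factor eIF2 alpha when it binds such RNA, ZBP1 senses left-handed nucleic acid and can trigger necroptosis, and ADAR edits adenosine to inosine in double-stranded RNA. Many of these genes are themselves induced by interferon through promoter elements bound by STAT and IRF factors, and DAC is known in cancer cells for raising transcripts of endogenous retroelements that can form double-stranded RNA. Retroelement transcripts were not counted in these files.

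The promoters of the members were read from RefSeq on GRCm38.p6 (mm10), from 250 bases before to 50 bases after each annotated start, because the members that moved together in these libraries could be compared by the letters they share there. Of the 10 members, 8 had a promoter in that set, with 10 promoters in all since Adar has 3. The pattern GAAANNGAAA, a short form of the interferon-stimulated response element, was searched on both strands. It was found in the promoters of 4 of the 8 members, Ddx60, Ddx58, Ifih1 and Eif2ak2, and in 3.44% of all 32851 promoters. Those 4 are shown 5′ to 3′ on the strand of the gene, with the matched letters in capitals. The windows are chr8:61927837-61928136 on the plus strand for Ddx60, chr4:40239776-40240075 on the minus strand for Ddx58, chr2:62646206-62646505 on the minus strand for Ifih1 and chr17:78882523-78882822 on the minus strand for Eif2ak2.
Ddx60: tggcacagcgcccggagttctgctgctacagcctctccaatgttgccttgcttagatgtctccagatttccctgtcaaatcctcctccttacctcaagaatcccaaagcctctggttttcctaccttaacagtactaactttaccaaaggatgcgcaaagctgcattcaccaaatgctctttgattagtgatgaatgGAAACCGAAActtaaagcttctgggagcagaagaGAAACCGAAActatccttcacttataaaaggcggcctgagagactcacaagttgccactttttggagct
Ddx58: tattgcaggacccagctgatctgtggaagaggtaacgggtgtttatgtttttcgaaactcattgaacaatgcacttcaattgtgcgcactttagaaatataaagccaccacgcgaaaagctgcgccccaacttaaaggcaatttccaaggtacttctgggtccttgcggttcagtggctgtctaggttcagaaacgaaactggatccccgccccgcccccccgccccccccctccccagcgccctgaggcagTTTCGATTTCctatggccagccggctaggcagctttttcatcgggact
Ifih1: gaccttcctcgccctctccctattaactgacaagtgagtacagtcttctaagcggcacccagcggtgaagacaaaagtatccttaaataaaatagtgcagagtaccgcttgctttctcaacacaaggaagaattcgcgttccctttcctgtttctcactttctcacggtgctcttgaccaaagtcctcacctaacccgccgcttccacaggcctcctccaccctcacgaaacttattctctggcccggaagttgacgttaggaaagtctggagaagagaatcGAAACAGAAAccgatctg
Eif2ak2: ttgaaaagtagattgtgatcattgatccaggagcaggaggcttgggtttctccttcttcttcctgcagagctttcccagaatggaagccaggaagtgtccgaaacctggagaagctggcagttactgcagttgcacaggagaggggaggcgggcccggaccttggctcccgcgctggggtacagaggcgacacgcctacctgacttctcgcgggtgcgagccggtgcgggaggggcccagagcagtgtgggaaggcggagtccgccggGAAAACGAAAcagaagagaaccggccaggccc

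Ddx60 held the pattern at 2 positions upstream of its start, from -53 to -44 and from -19 to -10, both with the same letters. The matches in the other 3 promoters lay just downstream of the start, from 2 to 11 in Ddx58 (on the opposite strand), from 32 to 41 in Ifih1 and from 18 to 27 in Eif2ak2. The gamma-activated site TTCNNNGAA, which is palindromic and reads the same on both strands, was found in Eif2ak2 and in 1 of the 3 Adar promoters, and in 8.30% of all promoters. The core of the antioxidant response element, TGACNNNGC, the element through which NRF2 acts, was found in Mavs from -73 to -65, and in 12.4% of all promoters on either strand. None of the 3 patterns was found in these windows of Tlr3 and Trim25, which says only that these letters are not there. CpG pairs, the sites that DNA methyltransferases modify, numbered between 6 in Ddx60 and 19 in Mavs for the 7 members with 1 promoter, and 6, 34 and 12 in the 3 promoters of Adar. The median over all promoters was 7, with quartiles of 3 and 20. DNA methylation was not measured in this series. A match is a description of the sequence and not a measured binding site.

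**Figure D1:**
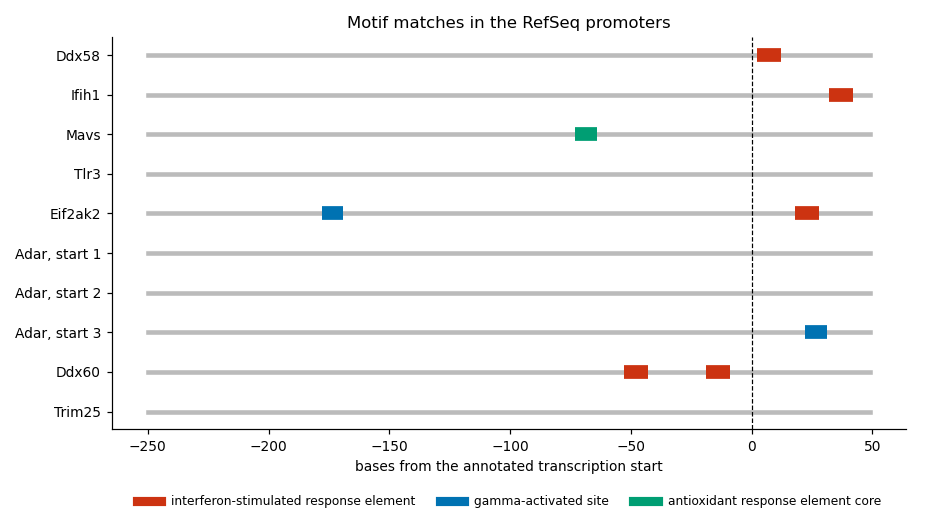
Position of motif matches in the 10 RefSeq promoters of 8 members, drawn to scale as bases from the annotated transcription start (dashed line at 0), 1 row per promoter. Red, blue and green boxes mark the interferon-stimulated response element, the gamma-activated site and the antioxidant response element core. Ddx60 has both of its red boxes before the start, and Ddx58, Ifih1 and Eif2ak2 have theirs after it.

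Between 15880957 and 27291436 reads per library were counted on genes. The SFN labels were checked with Nqo1, an NRF2 target, which had 8.42 ± 0.851 CPM in control cells and 8.18 ± 2.48 CPM after DAC alone, against 33.9 ± 1.10 CPM after SFN alone and 36.9 ± 2.90 CPM after both drugs (SD, n = 3). CPM is the count per 1e+06 counts of a library, scaled by TMM. All 7 melanocyte markers (Mitf, Sox10, Tyr, Tyrp1, Dct, Pmel and Mlana) passed the expression filter, and their summed level lay between 21417 and 30155 CPM in every library. Of the 7, 2 were called lower and 0 higher with the combination compared to control. With DAC compared to control 0 of the 7 had a higher value (median log2 fold change -0.105), and 0 were called. Of 7 leukocyte markers only Lyz2 passed. It averaged 1.64 ± 0.845 CPM in control cells, 2.03 ± 0.700 after DAC, 3.37 ± 1.74 after SFN and 3.35 ± 1.54 CPM after both drugs. It was called higher with both drugs compared to control (log2 fold change 1.02, adjusted p = 0.0289). SFN compared to control was of like size but not called (1.00), and SFN averaged over DAC was called (0.86). Adgre1 was at 0 in all libraries and Ptprc at 0 outside control. The summed leukocyte markers lay between 1.16 and 2.67 CPM in control and between 2.37 and 5.27 CPM with the combination treatment. Endothelial markers summed to at most 0.670 CPM and keratinocyte markers to at most 0.0910 CPM. The 4 fibroblast markers, 2 of which passed, summed to 17.9 to 359 CPM. Within that list Col1a1 moved with the repeat, from 61.1 to 89.4 CPM in replicate 1, from 15.3 to 23.6 in replicate 2 and from 247 to 365 in replicate 3, before TMM scaling. The part of Lyz2, Col1a1, Pdgfra or the melanocyte markers in the results below was not tested.

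Genes were retained when they reached 1 CPM in at least 3 of the 12 libraries. This kept 11638 genes and 9 of the 10 members. Zbp1 reached 1 CPM in a single library and was not tested. In control cells the level per kilobase of exon was highest for Mavs (15.6 ± 1.70 CPM per kb, SD, n = 3), followed by Eif2ak2 at 14.8 ± 3.95, Adar at 11.5 ± 2.75, Trim25 at 6.38 ± 3.03, Ddx58 at 6.13 ± 3.31, Tlr3 at 4.47 ± 0.880, Ifih1 at 2.11 ± 0.884, Dhx58 at 1.74 ± 1.11, Ddx60 at 0.159 ± 0.116 and Zbp1 at 0.0896 ± 0.104. Between neighbours in that order the control libraries were apart only for Tlr3 over Ifih1 and for Dhx58 over Ddx60. Across all 12 libraries, Adar was above Trim25, Tlr3 above Ifih1, Dhx58 above Ddx60 and Ddx60 above Zbp1 in 12 of 12, while Mavs was above Eif2ak2 in 7 and Trim25 above Ddx58 in 5. The most abundant members were the adaptor Mavs, the kinase Eif2ak2 and the editing enzyme Adar, with the RIG-I-like helicases below them.

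**Figure D2:**
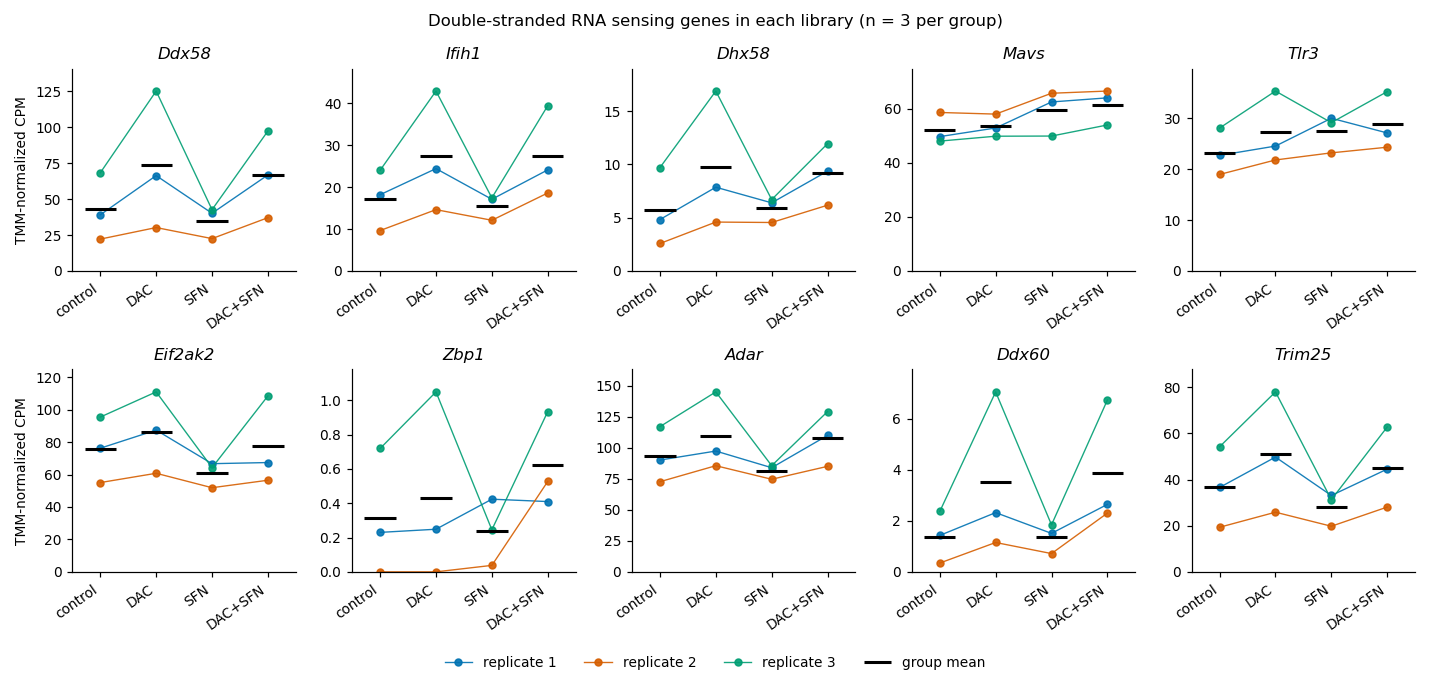
TMM-normalized CPM of each member in every library. Each point is 1 library, colored by replicate and joined within a replicate for the eye, black bars are group means (n = 3), and every panel has its own linear axis from 0. In 9 panels replicate 3 lies mostly on top and replicate 2 mostly at the bottom, whereas Mavs has replicate 2 on top.

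The repeats differed from each other in the level of these genes. For 9 of the 10 members the mean log2 CPM over the 4 groups was lowest in replicate 2 and highest in replicate 3. Mavs had the reverse order. Among control cells, replicate 3 exceeded replicate 2 by 6.86-fold for Ddx60, 3.76-fold for Dhx58, 3.08-fold for Ddx58, 2.80-fold for Trim25 and 2.49-fold for Ifih1, and by 1.73-fold, 1.61-fold and 1.48-fold for Eif2ak2, Adar and Tlr3, while the ratio for Mavs was 0.820. The replicate number was therefore kept as a block in the model, which compares treatments within a repeat. Values within a group are given in the order of replicates 1, 2 and 3. Without the replicate block, 0 members passed in any comparison, and every call below rests on it. The replicate number also follows the library numbers in the labels, 1 to 4, 5 to 8 and 11 to 14. Within each repeat these numbers run in the order control, DAC, SFN and combination. What the numbers stand for is not stated. If they mark an order of handling, that order cannot be told apart from the repeat or from the treatment. The block would not remove the part that follows treatment.

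Ddx58 (chr4:40203773-40239828, minus strand), encoding RIG-I, was 39.1, 22.2 and 68.4 CPM in control replicates 1, 2 and 3, and 66.4, 30.2 and 125 CPM with DAC. With SFN it was 40.2, 22.5 and 42.7 CPM, and with the combination treatment 66.9, 37.1 and 97.5 CPM. Both groups with DAC were above their partner without DAC in each replicate, while the groups overlapped because replicates 2 and 3 lay so far apart. The combination treatment raised Ddx58 compared to control (1.59-fold, 95% interval 1.29 to 1.96, adjusted p = 0.00262) and compared to SFN single treatment (1.84-fold, 1.49 to 2.27, adjusted p = 0.0223). For DAC single treatment compared to control the fold was 1.66 (1.34 to 2.04), just outside the threshold at an adjusted p of 0.0540. SFN single treatment gave log2 differences of 0.04, 0.02 and -0.68 in replicates 1, 2 and 3, so that the lower SFN mean came from replicate 3 (adjusted p = 0.371).

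Ifih1 (chr2:62595798-62646255, minus strand), encoding MDA5, was 18.2, 9.64 and 24.0 CPM in control replicates and 24.4, 14.6 and 42.9 CPM in those with DAC alone. SFN libraries held 17.1, 12.1 and 17.4 CPM, and combination libraries 24.1, 18.6 and 39.4 CPM. The 3 combination libraries lay above all 3 SFN libraries, without overlap. Ifih1 rose 1.60-fold with the combination treatment compared to control (1.28 to 2.00, adjusted p = 0.00337) and 1.70-fold compared to SFN (1.36 to 2.12, adjusted p = 0.0278). With DAC single treatment it was 1.56-fold of control (1.25 to 1.94, adjusted p = 0.114).

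Dhx58 (chr11:100694884-100704271, minus strand), encoding LGP2, was 4.83, 2.58 and 9.71 CPM in control replicates and 7.87, 4.59 and 16.9 CPM in those with DAC alone. SFN libraries held 6.40, 4.55 and 6.71 CPM, and combination libraries 9.38, 6.18 and 11.95 CPM. Combination treatment was above control in every replicate, by a log2 difference of 0.94, 1.23 and 0.30, and the groups overlapped. Dhx58 rose 1.71-fold compared to control (1.24 to 2.36, adjusted p = 0.0145), but this call was lost when control replicate 1 or 2 or combination replicate 1 or 2 was left out, with an adjusted p of up to 0.0755. Compared to SFN its fold was 1.52 (1.11 to 2.09, adjusted p = 0.152).

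Ddx60 (chr8:61928087-62038244, plus strand), whose promoter above held the response element at 2 positions, had the lowest level of the tested members and, in the comparisons of DAC or the combination with control and of the combination with SFN, the largest fold change among them. Its raw counts were 31, 8 and 46 in control replicates and 56, 18 and 188 in those with DAC alone. SFN libraries held 32, 19 and 45, and combination libraries 58, 48 and 144. All 3 combination libraries were above all SFN libraries, while the lowest combination library, at 2.30 CPM, was just below the highest control library, at 2.36 CPM. Ddx60 rose 2.91-fold with the combination treatment compared to control (1.87 to 4.53, adjusted p = 0.00148) and 2.81-fold compared to SFN (1.82 to 4.35, adjusted p = 0.0279). With DAC single treatment the fold was 2.47 (1.58 to 3.86, adjusted p = 0.111), and the log2 differences were 0.67, 1.51 and 1.54 in replicates 1, 2 and 3. The counts are small, and the intervals are the widest of the members.

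Trim25 (chr11:88999376-89020293, plus strand) was 36.6, 19.3 and 54.2 CPM in control replicates and 49.7, 25.8 and 78.0 CPM in those with DAC alone. SFN libraries held 33.1, 19.8 and 31.3 CPM, and combination libraries 44.5, 28.1 and 62.8 CPM. DAC single treatment was above control by nearly the same log2 difference in every replicate (0.44, 0.42 and 0.52), with a fold of 1.39 (1.15 to 1.68, adjusted p = 0.185). Trim25 rose 1.56-fold with the combination treatment compared to SFN (1.28 to 1.89, adjusted p = 0.0322), whereas compared to control the fold was 1.26 (1.04 to 1.53, adjusted p = 0.0637). With SFN single treatment it was 0.808-fold of control (0.664 to 0.984, adjusted p = 0.142), and as for Ddx58 the log2 difference was large in replicate 3 (-0.79) and near 0 in replicate 2 (0.03).

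Mavs (chr2:131234063-131248025, plus strand), the adaptor through which RIG-I and MDA5 signal, was 49.7, 58.6 and 48.0 CPM in control replicates and 52.9, 58.0 and 49.8 CPM in those with DAC alone. SFN libraries held 62.5, 65.7 and 49.9 CPM, and combination libraries 64.0, 66.5 and 54.0 CPM. The libraries with SFN were above their partners without SFN in every replicate, and DAC single treatment left a fold of 1.03 (0.935 to 1.13). Mavs rose 1.18-fold with the combination treatment compared to control (1.07 to 1.30, adjusted p = 0.0122), a call that was lost without control replicate 1 or without combination replicate 1, with an adjusted p of up to 0.0998. The folds with SFN single treatment compared to control (1.14, 1.03 to 1.25, adjusted p = 0.0731) and with combination treatment compared to DAC (1.15, 1.04 to 1.26, adjusted p = 0.0532) were of the same size. Averaged over the presence of DAC, SFN raised Mavs 1.14-fold (1.07 to 1.22, adjusted p = 0.00630), and this held when any 1 of the 12 libraries was left out, but not when all 4 libraries of replicate 1 or of replicate 2 were.

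Tlr3 (chr8:45395665-45411080, minus strand), the endosomal receptor, was 22.7, 19.0 and 28.1 CPM in control replicates and 24.6, 21.8 and 35.4 CPM in those with DAC alone. SFN libraries held 30.02, 23.2 and 29.2 CPM, and combination libraries 27.1, 24.3 and 35.3 CPM. Each treated group was above control in each replicate, and all groups overlapped. It rose 1.24-fold with the combination treatment compared to control (1.08 to 1.43, adjusted p = 0.0212). The size hardly moved when 1 library was left out (log2 0.29 to 0.35), but the call held only without combination replicate 1 and was lost without any of the other 5 libraries, with an adjusted p of up to 0.0754. With either drug alone the folds were 1.17 for DAC (1.01 to 1.34, adjusted p = 0.442) and 1.19 for SFN (1.03 to 1.37, adjusted p = 0.0939).

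Eif2ak2 (chr17:78852564-78882573, minus strand), encoding PKR, was 76.3, 55.1 and 95.5 CPM in control replicates and 87.4, 60.8 and 111 CPM in those with DAC alone. SFN libraries held 66.7, 51.9 and 64.3 CPM, and combination libraries 67.4, 56.5 and 109 CPM. It was below control in each replicate with SFN, and below DAC in each replicate with the combination treatment. Averaged over the presence of DAC, SFN lowered Eif2ak2 to 0.858-fold (0.768 to 0.957, adjusted p = 0.0358), and this call held in 4 of the 12 fits without 1 library, those without DAC replicate 2, SFN replicate 1 or 2, or combination replicate 3. Without any of the other 8 the adjusted p was up to 0.1103. Its fold with the combination treatment compared to control was 1.02 (0.870 to 1.19). No treatment group differed from control at the threshold. DAC averaged over SFN gave 1.18-fold (1.06 to 1.32, adjusted p = 0.0708), which DESeq2 and the fit with no filter called. Its promoter holds a match to the response element like those of Ddx60, Ddx58 and Ifih1, and a part of the element in these levels was not tested.

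Adar (chr3:89715022-89753446, plus strand) was 90.1, 72.7 and 117 CPM in control replicates and 97.4, 85.6 and 145 CPM in those with DAC alone. SFN libraries held 83.9, 74.6 and 85.6 CPM, and combination libraries 109.98, 85.0 and 129 CPM. It rose 1.31-fold with the combination treatment compared to SFN (1.14 to 1.49, adjusted p = 0.0483), close to the threshold, and was 1.16-fold of control (1.02 to 1.33, adjusted p = 0.0778). Adar shares 1365 exon bases with Chrnb2 on the opposite strand. Chrnb2 had at most 278 counts in a library, and whether strand was used in counting is not given in the sources used here, so reads of the pair may not be told apart.

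Zbp1 (chr2:173206612-173218923, minus strand) was close to the limit of detection. Its raw counts were 5, 0 and 14 in control replicates and 6, 0 and 28 in those with DAC alone. SFN libraries held 9, 1 and 6, and combination libraries 9, 11 and 20. The counts of 0 in replicate 2 of control and DAC allow a level of up to 0.129 and 0.191 CPM (3 counts, counting error only). The groups overlapped. The log2 differences of the combination from control were 0.64, 2.78 and 0.34 in replicates 1, 2 and 3, with a prior count of 2, and no test was made on counts this low.

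In DAC single treatment compared to control, 0 of 9 members passed at an adjusted p under 0.05 with edgeR, where 0.18% of all tested genes passed. By contrast 7 of 9 were under an unadjusted p of 0.05, where 10.1% of all genes were, and DESeq2 called 3 (Ddx60, Ifih1 and Trim25). Of the 9 members, 8 were higher in all 3 replicates, as were 20.5% of all genes. Their median log2 fold change was 0.47, against 0.0049 over all genes. Ddx58, nearest to the threshold, passed without DAC replicate 2 (log2 fold change 0.87, adjusted p = 0.0327), and without all libraries of replicate 3 (log2 0.62, adjusted p = 0.0166). Fitting control and DAC libraries alone called 7 members in place of 0. The shares of all genes called by DESeq2 and by that fit are not given here. The 3 and 7 members therefore have no background to be set against.

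In SFN single treatment compared to control, 0 of 9 members passed with edgeR, where 13.9% of all genes did. At an unadjusted p of 0.05, 4 of 9 passed, where 28.8% of all genes did, with Mavs and Tlr3 higher and Eif2ak2 and Trim25 lower, and DESeq2 called 0. The median log2 fold change was -0.086. Leaving out SFN replicate 3 brought Tlr3 past the threshold (log2 fold change 0.37, adjusted p = 0.0259).

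In the combination treatment compared to control, 6 of 9 members rose (Ddx60, Dhx58, Ifih1, Ddx58, Tlr3 and Mavs) and 0 fell, while 17% of all genes rose and 14.7% fell. Higher in all 3 replicates were 8 of 9, against 27.8% of all genes. The median log2 fold change was 0.33, against 0.0078 over all genes. Ddx58, Ddx60 and Ifih1 passed in each of the 6 fits without 1 of these libraries. Only these 3 passed without control replicate 1. Without control replicate 2 or combination replicate 2, 4 passed, with Mavs as the fourth, and without combination replicate 1 there were also 4, with Tlr3 as the fourth. Leaving out all 4 libraries of replicate 1 left 2, Ddx60 and Ifih1, and leaving out those of replicate 3 gave 8.

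**Figure D3:**
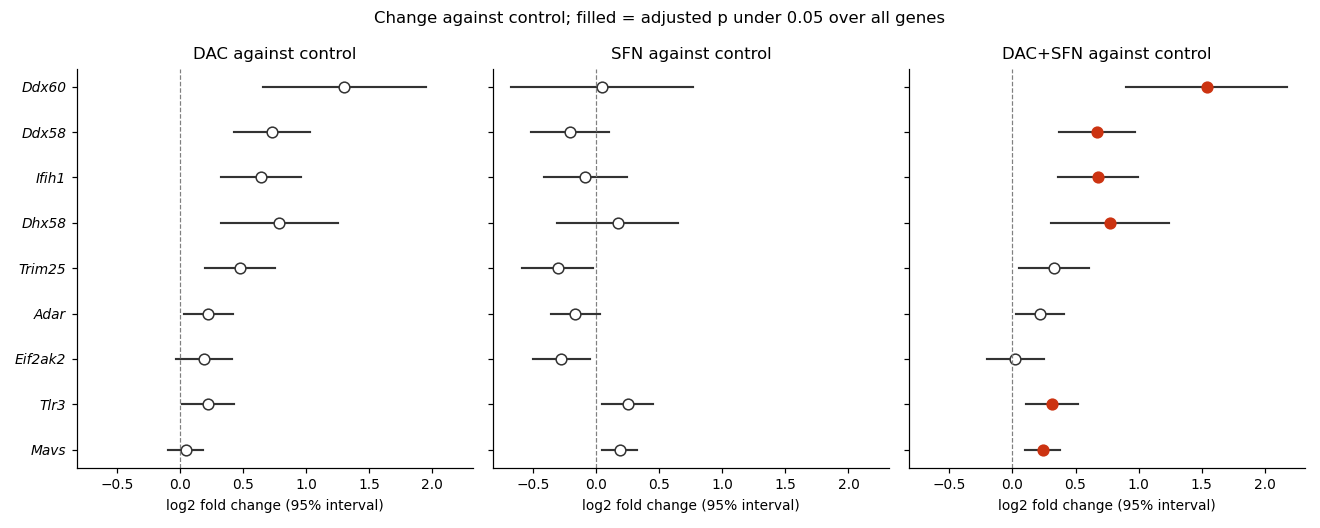
Log2 fold change with its 95% interval of the 9 tested members in each treatment compared to control, from the edgeR model with the replicate block over 12 libraries. Filled red points have an adjusted p under 0.05 over all 11638 genes. All 6 filled points are in the combination panel. The DAC points lie close to the combination points for the helicases, at 0.73 and 0.67 for Ddx58, and the 3 comparisons share the control libraries.

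In the combination treatment compared to DAC single treatment, 0 of 9 passed with edgeR, where 16.1% of all genes passed, 1 (Mavs) was under an unadjusted p of 0.05, where 30.5% of all genes were, and DESeq2 called 0. The intervals of the fold were 0.781 to 1.18 for Ddx58, 0.828 to 1.27 for Ifih1, 0.728 to 1.35 for Dhx58 and 0.798 to 1.74 for Ddx60. Without DAC replicate 3 Mavs passed, and without combination replicate 3 Eif2ak2 passed, as a lower value (log2 fold change -0.32).

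In the combination treatment compared to SFN single treatment, 5 of 9 members rose (Ddx60, Ddx58, Ifih1, Trim25 and Adar), where 0.937% of all genes rose, and 0 fell. Of the 9, 8 were higher in all 3 replicates, against 23.4% of all genes, and 2 (Ifih1 and Ddx60) were above SFN without overlap, against 5.23% of all genes. The median log2 fold change was 0.61, against 0.0048 over all genes. These calls lay near the threshold. Without SFN replicate 1, SFN replicate 3 or combination replicate 1, 0 of the 9 passed, with the folds of these 5 in the same direction, and without combination replicate 2 only Ddx58 did. With SFN replicate 2 or combination replicate 3 left out, the same 5 passed. With edgeR's robust fit 2 passed, Ddx60 and Ifih1.

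The comparison of DAC with control and that of the combination with SFN have no library in common, and give the change with DAC without and with SFN. Both come from 1 model with the same replicate block and the same estimate of the spread. They are therefore not independent measurements. The log2 fold changes, in that order, were 1.30 and 1.49 for Ddx60, 0.73 and 0.88 for Ddx58, 0.64 and 0.76 for Ifih1, 0.79 and 0.61 for Dhx58, and 0.47 and 0.64 for Trim25. They were 0.22 and 0.39 for Adar, 0.19 and 0.30 for Eif2ak2, 0.22 and 0.06 for Tlr3 and 0.04 and 0.05 for Mavs. The difference between both changes was tested as the interaction of DAC and SFN. It was called by edgeR for 0 of 9 members, as for 0% of all genes, with 0 members under an unadjusted p of 0.05 and 0 by DESeq2. The estimates ran from -0.18 for Dhx58 to 0.19 for Ddx60 on the log2 scale, and the 95% intervals from -0.28 to 0.57 for Ddx58 and from -0.73 to 1.11 for Ddx60 leave room for sizeable differences.

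**Figure D4:**
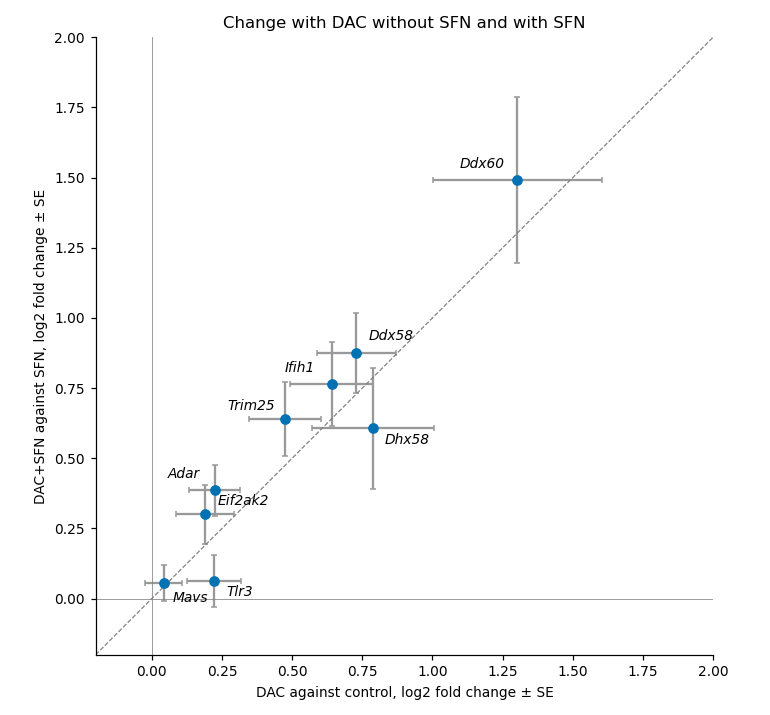
Log2 fold change with DAC in the absence of SFN (horizontal, DAC compared to control) and in its presence (vertical, combination compared to SFN) for the 9 tested members, with SE bars. The dashed line marks equal changes. Ddx60 lies farthest out at 1.30 and 1.49, the RIG-I-like helicases and Trim25 lie between 0.47 and 0.88, and Mavs lies near 0 on both axes.

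Averaged over the presence of SFN, DAC raised 6 of 9 members, Ddx60 2.63-fold (1.93 to 3.60, adjusted p = 0.00330), Ddx58 1.74-fold (1.5 to 2.02, adjusted p = 0.00147), Ifih1 1.63-fold (1.39 to 1.90, adjusted p = 0.00330), Dhx58 1.62-fold (1.29 to 2.03, adjusted p = 0.0190), Trim25 1.47-fold (1.28 to 1.69, adjusted p = 0.00465) and Adar 1.24-fold (1.12 to 1.36, adjusted p = 0.0161). Of all genes, 3.07% rose. This average uses the same libraries as the comparisons above and is not separate evidence. Ddx58, Ddx60, Ifih1 and Trim25 passed in all 12 fits without 1 library, Adar in 10 and Dhx58 in 5. Adar failed without control replicate 2 and without combination replicate 1 (adjusted p up to 0.0527). Dhx58 failed without control replicate 1 or 2, DAC replicate 3, SFN replicate 1 or 3, or combination replicate 1 or 2 (adjusted p up to 0.0740). Leaving out all 4 libraries of replicate 1 left only Ddx60 past the threshold, while leaving out those of replicate 3 left all 6. Eif2ak2 (1.18-fold, 1.06 to 1.32, adjusted p = 0.0708), Tlr3 (1.10-fold, 1.00 to 1.22, adjusted p = 0.242) and Mavs (1.03-fold, 0.966 to 1.11) did not pass.

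Averaged over the presence of DAC, SFN raised 1 member, Mavs, where 16.1% of all genes rose, and lowered 1, Eif2ak2, where 13.5% of all genes fell. A share of 1 in 9 in each direction is near that of all genes. Tlr3 was 1.13-fold (1.02 to 1.24, adjusted p = 0.0670) and Trim25 0.856-fold (0.747 to 0.981, adjusted p = 0.0801).

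Across the 12 libraries the members kept a common profile apart from Mavs. Pearson's r of a member's log2 CPM with the mean of the other tested members was 0.986 for Ifih1, 0.973 for Ddx58, 0.973 for Dhx58, 0.963 for Ddx60, 0.945 for Adar, 0.944 for Trim25, 0.857 for Tlr3 and 0.842 for Eif2ak2, whereas it was -0.497 for Mavs. The closest pair was Ddx58 with Trim25 (r = 0.987). The libraries share treatments and repeats, so these values describe the profile and are no test. They include the differences between repeats, in which Mavs had the reverse order. The negative r of Mavs therefore does not say that treatments moved it against the other members. Outside the members, the genes whose profile was most like the mean of the tested members were Irgm1 (r = 0.986), Isg15 (0.982), Xaf1 (0.982), Parp10 (0.971), Lgals9 (0.970), Trim12c (0.970), Parp14 (0.968) and Lgals3bp (0.966). Isg15, the ubiquitin-like protein known as an interferon-stimulated gene, had group means of 9.34 CPM for control, 22.2 for DAC, 8.15 for SFN and 18.8 for the combination. The corresponding means of Irgm1, an interferon-inducible GTPase, were 40.3, 64.1, 37.6 and 61.6 CPM.

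Further genes of the pathway were taken from lists and described by their counts. Of 18 adaptors, kinases and transcription factors downstream of the receptors, all tested, 4 rose and 3 fell with the combination treatment compared to control, near the shares of all genes (17% rose and 14.7% fell). Ticam1, the adaptor of TLR3, rose by a log2 fold change of 0.40 (adjusted p = 0.00185), Tbkbp1, a TBK1-binding adaptor, by 0.42 (adjusted p = 0.00203) and Traf3 by 0.21, and Fadd fell by 0.30 (both adjusted p = 0.0125). The median was 0.025. Averaged over SFN, DAC raised 2 of the 18, Irf7 and Tbkbp1, where 3.07% of all genes rose. Irf7, the transcription factor known for amplifying interferon production, averaged 3.06 ± 2.66 CPM for control, 7.36 ± 8.11 for DAC, 1.83 ± 1.10 for SFN and 4.26 ± 3.04 for the combination (SD, n = 3). It rose by a log2 fold change of 1.18 with DAC averaged over SFN (adjusted p = 0.00424) and by 1.21 with the combination compared to SFN (adjusted p = 0.0471), and SFN averaged over DAC lowered it (log2 fold change -0.63, adjusted p = 0.0225).

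Among 24 tested regulators of RIG-I, MDA5 and MAVS, of 26 in the files, 3 rose and 3 fell with the combination treatment compared to control, no larger shares than the 17% and 14.7% of all genes, and DAC averaged over SFN called 0 of them. Nlrc5, a NOD-like receptor known for inducing MHC class I genes, rose by a log2 fold change of 1.36 (adjusted p = 0.00238) from 1.14 ± 0.668 CPM in control to 2.85 ± 0.822 CPM. Cyld, a deubiquitinase that acts on RIG-I, rose by 0.48 (adjusted p = 0.000318). Ppp1cc, a phosphatase subunit, and Pcbp2, which promotes MAVS degradation, had log2 fold changes of -0.33 (adjusted p = 0.000548) and -0.30 (adjusted p = 0.00121). In that comparison the other proteins with double-stranded RNA-binding domains (18 tested of 19) had 2 higher, Son (log2 fold change 0.21) and Dicer1 (0.16), and 3 lower, among them Ilf2 (-0.24) and Cdkn2aip (-0.28), against 17% and 14.7% of all genes, and DAC averaged over SFN called 0 of them.

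In the branch of PKR and eIF2 alpha (12 genes, all tested), SFN single treatment lowered 3 of the 12 compared to control, Atf4, the transcription factor translated under eIF2 alpha phosphorylation, by 0.51 on the log2 scale (adjusted p = 4.95e-05), and Dnajc3, an inhibitor of PKR, and Ppp1r15b, a subunit of the eIF2 alpha phosphatase, by 0.24 and 0.20. Of all genes 13.9% passed in that comparison in either direction. With the combination treatment these 3 fell as well, while Ppp1r15a, the stress-induced phosphatase subunit, rose by 0.45 (adjusted p = 0.0120). This is 1 higher and 3 lower of 12, against 17% and 14.7% of all genes. DAC averaged over SFN raised 2 of the 12 and lowered 0, where 3.07% of all genes rose. SFN averaged over DAC raised 1 and lowered 5, against 16.1% and 13.5% of all genes. In the ZBP1 branch (5 tested of 6), the combination raised Cflar (log2 fold change 0.46, adjusted p = 0.000467), which blocks caspase-8, and Mlkl (0.21, adjusted p = 0.0386), the executor of necroptosis, and lowered Fadd. This is 2 higher and 1 lower of 5, against 17% and 14.7% of all genes. Ripk3, through which ZBP1 signals, had at most 9 counts in a library and was not tested. Among endosomal RNA receptors and their chaperones (5 tested of 7), Ticam1 rose and Hsp90b1 fell (log2 fold change -0.46, adjusted p = 0.000174) with the combination. A share of 1 in 5 in each direction is near the 17% and 14.7% of all genes. Tlr7 and Tlr8 were below the filter, with at most 1 and 0 counts per library.

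For comparison, of 12 tested genes for DNA sensing and nucleic acid clearance, of 14 in the files, the combination raised Trex1 (log2 fold change 0.46, adjusted p = 0.0244) and lowered Rnaseh2b (-0.46, adjusted p = 0.00289) and Rnaseh2a (-0.23, adjusted p = 0.0230), which is 1 higher and 2 lower against 17% and 14.7% of all genes. Ifi203 rose with DAC averaged over SFN (1.30, adjusted p = 0.0130) and fell with SFN averaged over DAC (-0.75, adjusted p = 0.0447), from at most 24 counts per library in control, and its reads may be split with close copies of the same family. None of the 21 interferon genes in the files passed the filter. Of these, 17 were at 0 in all 12 libraries. The others, Ifnb1, Ifnab, Ifne and Ifnz, had at most 4, 1, 3 and 4 counts in a library, and all interferon genes together had between 0 and 7 counts per library. Transcripts of interferon genes were therefore near or below detection in these counts in all 4 groups. Reads that aligned to several places were discarded before counting, and the part of this in the counts of 0 was not tested.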

How the data were processed

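RNA-seq was performed on B16F10 cells in 4 groups of 3 repeats. The authors used Trimmomatic 0.38 for trimming and TopHat2 2.1.1 for alignment to mm10, counted uniquely aligned reads per gene with HTSeq, and deposited raw counts, neither normalized nor filtered. The gene annotation and the strand setting of the counting are not given in the sources used here. Groups and replicate numbers came from the labels. Members were found by symbol, with positions from GENCODE M21 and promoters from RefSeq. The members and gene lists were chosen with earlier results of these data known.

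Counts were scaled by TMM and tested with edgeR 4.0.16 (glmQLFTest, legacy fit, two-sided, prior count 0.125) in R 4.3.3, with all 12 libraries in 1 model and the replicate number as a block. P-values were adjusted by Benjamini-Hochberg over 11638 genes, and a gene was called at an adjusted p under 0.05. SE was taken as the log2 value over the root of F. The labels state independent biological repeats. Deviations from group means of libraries with the same number correlated in all 18 pairs (r 0.270 to 0.732, mean 0.544, against a mean of -0.267 in other pairs), so the numbers were taken as pairing. Replicate log2 differences carry a prior count of 2. Named list genes were the 4 with the smallest p in the combination compared to control, and any past 2-fold when called. The 8 most alike genes were chosen by Pearson's r. Ripk3, Tlr7, Tlr8, Chrnb2, Col1a1, Pdgfra, Lyz2, Adgre1, Ptprc and the detected interferon genes were named after their values were seen. DESeq2 1.42.0, other scalings, filters and fits, and fits without each library were the alternatives. The fits were tested on simulated data. Figures were drawn with matplotlib 3.10.9.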

Additional observations from a re-analysis of the deposited data

How the results depend on the processing

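The calls depend most on the replicate block. With no replicate block, 0 members passed in each comparison, in place of 6 for the combination compared to control, 5 compared to SFN, 6 for DAC averaged over SFN and 2 for SFN averaged over DAC. DAC compared to control, with 0 calls, gave 3 with DESeq2, 1 with RLE size factors, 5 with no filter, 1 with at least 10 counts in every library, 1 with the version 4 fit, 7 with only the groups compared and 7 by unadjusted p. SFN compared to control gave 2 with no filter, 1 with only the groups compared and 4 by unadjusted p, and the combination compared to DAC gave 1 by unadjusted p. With the robust fit 2 passed in the combination compared to SFN and 1 for SFN averaged over DAC, which had 4 by unadjusted p. A threshold of 2-fold left 1 in the combination compared to control, 1 compared to SFN, 1 for DAC averaged and 0 for SFN averaged. The combination compared to control gave 7 with DESeq2 or no filter (Trim25 gained), 5 with at least 10 counts in every library, which drops Ddx60, and 6 with only the groups compared (Trim25 gained, Mavs lost). The combination compared to SFN gave 4, 6 and 7 with at least 10 counts, no filter and only the groups compared, and DAC averaged gave 5 with at least 10 counts and 7 with DESeq2 or no filter (Eif2ak2 gained). The shares of all genes called under these other settings are not given, so the counts compare settings and not members with all genes. The causes of these differences were not tested. Filters changed both the genes tested and the estimate of the spread.

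Leaving out 1 library or all libraries of a replicate gave 0 to 1 calls for DAC compared to control, 0 to 2 for SFN, 2 to 8 for the combination, 0 to 2 for the combination compared to DAC, 0 to 5 compared to SFN, 1 to 7 for DAC averaged and 0 to 4 for SFN averaged, and 0 for the interaction. No called value changed sign in these fits. Among the uncalled log2 values, several near 0 did, in SFN compared to control (Ddx58, Ifih1, Dhx58 and Ddx60), in the combination compared to DAC (Adar, Ddx58, Ifih1, Dhx58 and Trim25), in SFN averaged over DAC (Adar, Ddx58, Ddx60, Dhx58 and Ifih1) and in the interactions of all tested members but Adar and Tlr3. Others were Mavs with DAC compared to control (-0.0068 to 0.074), Eif2ak2 with the combination compared to control (-0.12 to 0.13), Tlr3 with the combination compared to SFN (-0.057 to 0.17), and the interactions of Dhx58 (-0.47 to 0.12) and Ddx60 (-0.19 to 0.58). Zbp1, Ddx60 and the interferon genes had few counts, which limits what can be said of them at this depth.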
